A study of Mus musculus with 3 samples.

Results

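The S100 proteins, the annexins and the calmodulin pathway are calcium-binding proteins and their effectors, and their transcripts were described here in renin-producing cells of the mouse kidney. Members were all probe sets whose single platform gene symbol began with S100, Anxa, Calm and a digit, Camk, Ppp3 or Rcan, or was Calb1, Calb2 or Pvalb. They came to 60 of 35557 probe sets, standing for 57 of 19938 genes. The rule used names only, and it also took in S100pbp, which encodes a binding partner of an S100 protein and no S100 protein itself. Another 32 probe sets carried the symbol Camkv beside Rpl21, a ribosomal protein gene, and were left out because they name several genes. Camkk1 was not analysed here.

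The cells came from adult male Ren1c-YFP mice of unspecified strain, in which yellow fluorescent protein (YFP) follows the renin gene Ren1c. For 2 weeks every mouse drank water with 0.5 mg/ml captopril, which blocks the enzyme that makes angiotensin II, and ate low-salt chow. YFP-positive cells were sorted by fluorescence from digested cortex, and RNA amplified in 1 round was measured on Affymetrix arrays of 1 colour. The 3 arrays, replicates 2, 4 and 5, form 1 group with no untreated or YFP-negative sample among them, so the values are levels and not effects of captopril, of salt or of sorting. According to the labels no sample was a pool, but whether each came from its own animal is not stated, and the p-values cover the spread between these samples alone, which may be technical.

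Renin-producing cells are unusual among secretory cells because a rise in cytosolic calcium holds renin release back, while cAMP promotes it. Calmodulin is the general calcium sensor that activates the calmodulin-dependent kinases, the phosphatase calcineurin and myosin light chain kinase. S100 proteins are small EF-hand proteins that change the activity of their partners when they bind calcium, annexins bind acidic membranes in a calcium-dependent way, and calbindins and parvalbumin buffer calcium.

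In replicates 2, 4 and 5 the median probe set had a log2 signal of 6.09, 6.11 and 6.21. As background level served the log2 signal under which 95% of the olfactory receptor genes of an array lay, which was 6.20, 6.32 and 6.50. All 8 measured renin cell and mural markers of 10 listed, including Rgs5 and Gja5, were above background, and Ren1 was not analysed here. So were 8 of 8 smooth muscle, 8 of 8 proximal tubule, 6 of 7 thick ascending limb and 7 of 7 principal cell markers. The counts were 7 of 7 for intercalated cell, 5 of 6 for parietal epithelial and 4 of 7 for fibroblast markers. Of all genes 37.3% were above background. Podocyte markers (1 of 6) and macrophage markers (2 of 10) had lower shares than that, with list medians 0.13 and -0.38 from the level. Markers of tubule and some other cells were thus measured beside those of renin cells, while the podocyte and macrophage counts do not show those cells. Which cells of a sample a member's transcript came from was not tested. In such samples fewer cells of a type and less RNA per cell cannot be told apart.

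Of the 57 member genes, 27 (47.4%) were above background in limma's one-sided test of the log2 signal minus the level (adjusted p under 0.05 over all genes), against 37.3% of all 19938 genes. Apart from the calcineurin regulators and S100pbp, the calls fell on part of each gene family: 8 of 17 S100 genes, 5 of 12 annexins, 2 of 4 calmodulin genes, 4 of 12 calmodulin kinase genes with their inhibitors, 3 of 5 calcineurin subunits, 3 of 3 calcineurin regulators, 1 of 3 calcium buffers and S100pbp. The median distance from the level was 0.66 log2 units over the members and -0.01 over all genes. Of the members 16 (28.1%) had a mean 2 or more log2 units above the level, against 12.6% of all genes. Another 24 (42.1%) were under the level in all 3 arrays, against 43.7% of all genes. The remaining 6 members that were not called had means from 0.05 (Anxa11) to 0.78 (Anxa3) above the level. The called member with the highest adjusted p was Rcan3 (limma adjusted p = 0.0153). A level depends on the probes as well as on the transcript, so values of different genes are not read here as relative amounts of transcript.

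**Figure D1:**
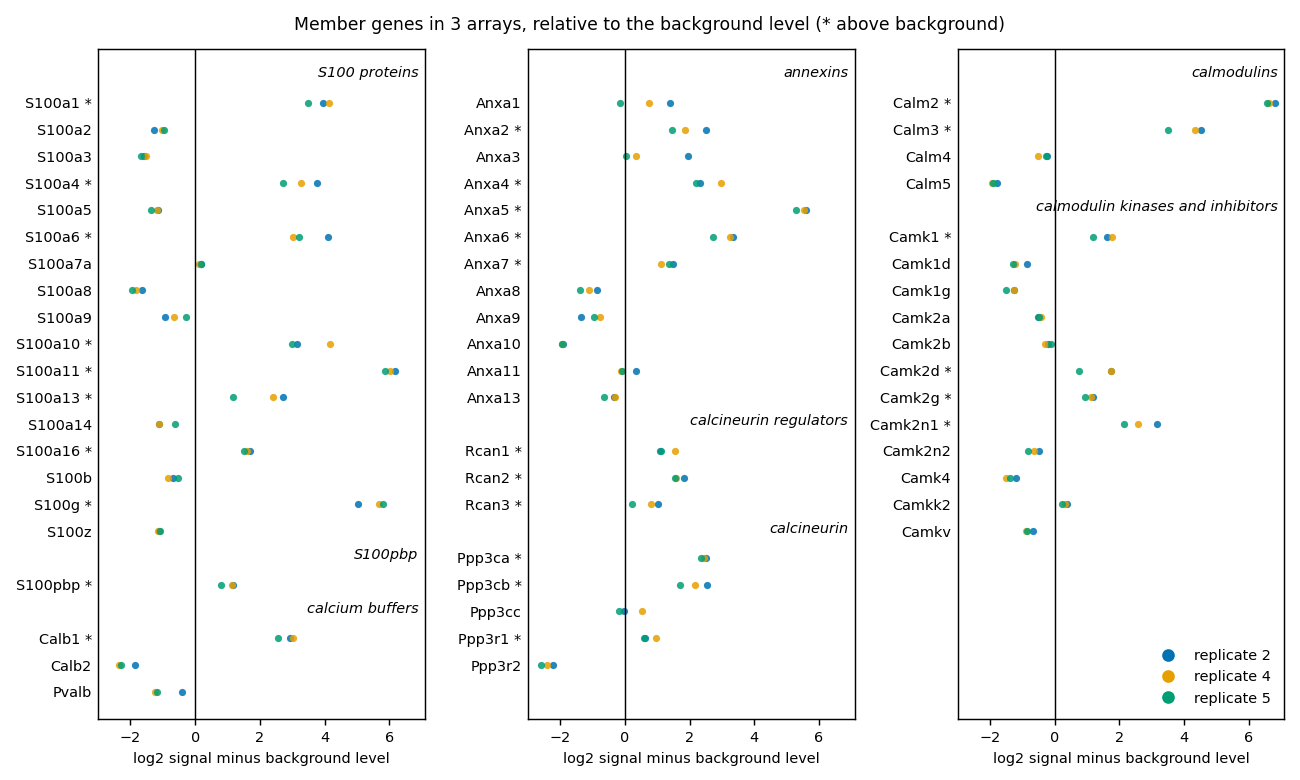
Log2 signal minus the array's background level (horizontal axis) for each of the 57 member genes, grouped by protein family, with 1 point per array and an asterisk for genes above background. In the 24 members under the level in all arrays every point lies left of 0, and the 16 genes with a mean of 2 or more lie well to the right.

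Among the S100 genes, 8 were above background, and all 8 stayed so with a stricter background at the 99th percentile of those receptor genes. S100a11, which encodes a protein that binds annexin A1, had log2 signals of 12.38, 12.34 and 12.37 in replicates 2, 4 and 5, and its mean lay 6.02 ± 0.17 (SE) above the level. On the deposited scale the arrays differed by 0.03, less than for any other called member. Each SE given with a distance from the level is the moderated one of limma's fit. That fit shares the spread over all genes, so the SE is not that of the 3 values alone. S100a10 encodes the partner of annexin A2 in a membrane complex, and its signals were 9.36, 10.49 and 9.49, highest in replicate 4. Its mean lay 3.44 ± 0.30 above the level.

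S100a1, known for its action on the calcium release channels of muscle, had signals of 10.14, 10.44 and 9.97, with a mean 3.85 ± 0.25 above the level. S100a4, which binds non-muscle myosin, had signals of 9.97, 9.58 and 9.23 and a mean 3.25 ± 0.28 above it. For S100a6, calcyclin, the signals were 10.29, 9.35 and 9.72, with a mean 3.45 ± 0.29 above the level. Both S100a4 and S100a6 were highest in replicate 2. S100a13, whose product takes part in the release of growth factors that lack a signal peptide, gave 8.91, 8.73 and 7.69, and its mean was 2.10 ± 0.32 above the level, with replicate 5 clearly the lowest. S100a16 had a mean of 7.94 ± 0.06 (SD, n = 3, as for every mean ± SD below), with the arrays within 0.12 of each other.

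S100g, the vitamin D-dependent calbindin-D9k of calcium-transporting epithelia, stood at 11.23, 12.00 and 12.31, with a mean 5.51 ± 0.22 (SE) above the level. It was lowest in replicate 2. The buffer gene Calb1, calbindin-D28k, which marks the same distal nephron segments, had signals of 9.13, 9.33 and 9.05, and its mean was 2.83 ± 0.25 (SE) above the level. Its arrays differed by 0.28, against 1.08 for S100g. Pvalb, parvalbumin of the early distal convoluted tubule (5.40 ± 0.37), and Calb2, calretinin (4.16 ± 0.19), were under the level in all arrays. Markers of the distal convoluted and connecting tubule were called in 4 of 5 measured cases, among them the salt transporter gene Slc12a3 (9.09 ± 0.42) and the calcium exchanger gene Slc8a1 (8.18 ± 0.31), while Trpm6 (5.81 ± 0.09) was under the level. The median of that list was 7.23, 7.29 and 7.70 in replicates 2, 4 and 5. On the deposited scale its genes did not share 1 order of arrays. Slc12a3 was highest in replicate 4 (8.84, 9.58 and 8.85), and the other measured genes of the list were highest in replicate 5. The part of these cells in the S100g signal was not tested.

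The other 9 S100 genes were not called, and 8 of them were under the level in all arrays. S100a8 (4.53 ± 0.04) and S100a9 (5.71 ± 0.48) encode calprotectin, the abundant S100 pair of neutrophils, and none of 10 neutrophil markers was called either. The neutrophil list's median was 4.95, 4.92 and 5.12. S100b (5.65 ± 0.28), a gene of glia and Schwann cells, was under the level, as was the median of the 6 measured nerve and Schwann markers at 6.14, 6.22 and 6.36, with 0 of 6 called. S100a14 (5.38 ± 0.43), S100a2 (5.26 ± 0.32), S100z (5.22 ± 0.17), S100a5 (5.10 ± 0.04) and S100a3 (4.75 ± 0.11) were also under it. S100a7a (6.50 ± 0.16) had a mean 0.15 above the level and did not pass (limma adjusted p = 0.333).

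Most S100a genes are neighbours in the mouse genome, and genes above and under the level alternated along this row. In the gene order of the RefSeq annotation of GRCm38.p6, S100a1 and S100a13 were called, S100a14 was not, S100a16 was, S100a3 and S100a2 were not, S100a4 was, S100a5 was not, S100a6 was, and S100a7a, S100a8 and S100a9 were not. S100a11 and S100a10 follow 54 protein-coding genes after S100a7l2, which was not analysed here, and both were called. S100a5, whose signals were 5.06, 5.13 and 5.13, sits between S100a4 and S100a6. Relative to the level its 3 arrays were at -1.14, -1.19 and -1.38, while those of S100a4 and S100a6 were between 2.72 and 4.09.

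**Figure D2:**
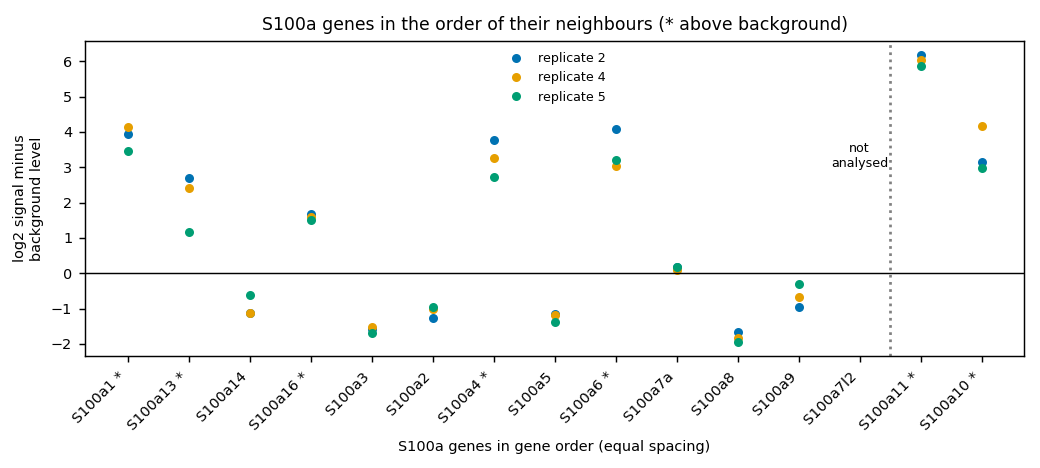
Log2 signal minus the background level (vertical axis) for the S100a genes in gene order along the annotation, 1 point per array, with an asterisk for genes above background and a dotted line where 54 other genes intervene. S100a5 lies under 0 in each array, between S100a4 and S100a6, which lie above it in each array.

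The 250 bases upstream of the start of these 3 neighbours are shown, since they differ in call although they adjoin, together with those of S100a11, which was called under every alternative tried; this choice was made after the values were seen. Sequences are from RefSeq (GRCm38.p6), 5′ to 3′, and capitals mark matches to any of 5 motifs searched on both strands. The TATA box was searched as TATAAA. The GC box was searched as GGGCGG. The core site of cAMP response elements was searched as TGACG. The AP-1 site, which reads alike on both strands, was searched as TGANTCA, and the CArG box of muscle genes is given by name.
S100a4 (chr3:90603520-90603769, plus strand): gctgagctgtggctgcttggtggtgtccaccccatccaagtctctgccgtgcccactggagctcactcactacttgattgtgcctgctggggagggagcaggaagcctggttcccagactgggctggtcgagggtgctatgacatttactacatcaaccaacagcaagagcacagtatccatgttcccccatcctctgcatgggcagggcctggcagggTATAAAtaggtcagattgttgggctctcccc
S100a5 (chr3:90608272-90608521, plus strand): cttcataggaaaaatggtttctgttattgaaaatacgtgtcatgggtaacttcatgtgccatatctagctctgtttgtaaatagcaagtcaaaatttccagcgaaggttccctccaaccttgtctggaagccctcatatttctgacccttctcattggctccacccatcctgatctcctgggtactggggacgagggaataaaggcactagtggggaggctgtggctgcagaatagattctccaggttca
S100a6 (chr3:90612644-90612893, plus strand): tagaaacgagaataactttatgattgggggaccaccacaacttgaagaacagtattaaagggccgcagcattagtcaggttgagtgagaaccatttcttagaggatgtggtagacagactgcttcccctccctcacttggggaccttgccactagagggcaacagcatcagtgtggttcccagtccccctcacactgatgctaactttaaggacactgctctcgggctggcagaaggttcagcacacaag
S100a11 (chr3:93520246-93520495, plus strand): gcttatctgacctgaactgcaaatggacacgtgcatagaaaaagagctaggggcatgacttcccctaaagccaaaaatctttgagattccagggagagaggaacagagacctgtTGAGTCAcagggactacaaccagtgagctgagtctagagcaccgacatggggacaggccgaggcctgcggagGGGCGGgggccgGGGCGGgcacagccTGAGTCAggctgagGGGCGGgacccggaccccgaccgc
S100a4 has a TATA box from 31 to 26 bases before the start, S100a11 has 3 GC boxes and 2 AP-1 sites, and no searched motif lies in the windows of S100a5 and S100a6. No capital stretch belongs to more than 1 motif. Over all 32851 upstream windows of this length in the table, 12.4% hold a TATA box, 32.7% a GC box, 17.8% the cAMP core site, 6.75% an AP-1 site and 1.47% a CArG box. The table held 55 windows for 42 of the 57 members. Some members had more than 1 window and others none. Of 27 windows of 20 called members, 7.41% had a TATA box, 48.1% a GC box, 29.6% the cAMP core site, 18.5% an AP-1 site and none a CArG box. Of 28 windows of 22 members that were not called the shares were 14.3%, 32.1%, 14.3% and 3.57%, again with no CArG box. These are matches of letters and do not show that a factor binds there.

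Of the 12 annexins, 5 were called. Anxa5, the annexin used as a probe for exposed phosphatidylserine, had signals of 11.79, 11.84 and 11.78 in replicates 2, 4 and 5, with a mean 5.46 ± 0.19 (SE) above the level. Its arrays differed by 0.06. Anxa6, a large annexin with a doubled core, gave 9.56, 9.57 and 9.24 with a mean 3.11 ± 0.25 above the level. Anxa4, found in many epithelia, gave 8.52, 9.30 and 8.70 with a mean 2.50 ± 0.26 above it, and it was highest in replicate 4, as was S100a10. Anxa2, the membrane partner of S100a10, had a mean of 8.27 ± 0.39 (SD), and Anxa7, also called synexin, one of 7.66 ± 0.22. With the background at the 99th percentile Anxa7 was not called (limma adjusted p = 0.109).

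Anxa1 and Anxa3 had means above the level but missed the threshold, and both were highest in replicate 2. In Anxa3 replicate 2 stood apart from the others, and in Anxa1 the arrays were spread. For Anxa3 the signals were 8.16, 6.67 and 6.54 (limma adjusted p = 0.0685), and for Anxa1, the glucocorticoid-regulated annexin, 7.59, 7.06 and 6.35 (limma adjusted p = 0.0594). Without replicate 5 both passed (limma adjusted p = 0.0166 and 0.00296), and without replicate 4 Anxa3 did (0.0139). Anxa11 (6.39 ± 0.18) lay 0.05 above the level and was not called (limma adjusted p = 0.790). Anxa13 (5.91 ± 0.10), Anxa9 (5.31 ± 0.41), Anxa8 (5.23 ± 0.12) and Anxa10 (4.42 ± 0.14) were under the level in all arrays. Receptors and partners of these families were called in 10 of 13 measured cases, among them Sri (10.04 ± 0.40), sorcin, and Pdcd6 (9.37 ± 0.15), penta-EF-hand proteins that bind annexins, and Cacybp (8.88 ± 0.51), calcyclin-binding protein. Ahnak (7.61 ± 0.18), the giant protein bound by the S100a10 and annexin A2 complex, was called too, and Plg, plasminogen (5.27 ± 0.12), was not.

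Among the calmodulin genes, Calm2 and Calm3, which encode the same protein, were both called. Calm2 lay 6.80, 6.63 and 6.57 log2 units above the level of replicates 2, 4 and 5, with a mean signal of 13.01 ± 0.06 and a mean distance of 6.67 ± 0.15 (SE). Calm3 gave 10.71, 10.66 and 10.00, with a mean 4.12 ± 0.27 above it and replicate 5 the lowest. The calmodulin-like genes Calm4 (6.01 ± 0.22) and Calm5 (4.47 ± 0.10) of skin were under the level in all arrays. A mixed list of genes related to calmodulin by name or function had 7 of 10 called. Among these were Calml4, a calmodulin-like protein, at 10.43 ± 0.64, and Camta1, a calmodulin-binding transcription activator, at 9.56 ± 0.48. Pcp4l1 stood at 8.83 ± 0.36, while the neuronal Nrgn (5.70 ± 0.03) and Gap43 (6.18 ± 0.18) were not called. Of 29 measured enzymes and other targets of calmodulin 13 were called. Cald1, the thin-filament protein caldesmon, stood at 11.76 ± 0.18, Atp2b1, a plasma membrane calcium pump, at 9.66 ± 0.19, and Pde1a, a calmodulin-activated phosphodiesterase, at 9.58 ± 0.28. Mylk, myosin light chain kinase, was called as well (8.69 ± 0.33), and Itpka (4.99 ± 0.03) was not.

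Of the 12 genes of the calmodulin kinase group, 4 were called. Camk2n1, an inhibitor of calmodulin kinase II, had signals of 9.37, 8.90 and 8.64 and a mean 2.63 ± 0.28 (SE) above the level, with replicate 2 the highest. Of the kinase II subunits, Camk2d (7.75 ± 0.44) and Camk2g (7.42 ± 0.04), the forms of many non-neuronal tissues, were called, while Camk2a (5.87 ± 0.17) and Camk2b (6.15 ± 0.23), the main neuronal forms, were under the level. Camk1 was called (7.87 ± 0.20). With the background at the 99th percentile Camk2d and Camk2g lost their calls (limma adjusted p = 0.174 and 0.533). Camkk2, a kinase upstream of Camk1, lay 0.30 above the level and was not called (6.64 ± 0.08, limma adjusted p = 0.0967). Camk2n2, Camkv, Camk1d, Camk1g and Camk4 had means from 5.70 to 4.98 and were under the level in all arrays.

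For calcineurin, the phosphatase that activates NFAT transcription factors, the catalytic subunits Ppp3ca and Ppp3cb and the regulatory subunit Ppp3r1 were called. Ppp3ca had signals of 8.72, 8.78 and 8.86 and a mean 2.44 ± 0.23 (SE) above the level, and Ppp3cb 8.74, 8.49 and 8.20 with a mean 2.14 ± 0.26 above it. Ppp3r1 had a mean of 7.06 ± 0.23 and was not called without replicate 4 (limma adjusted p = 0.0637) or at the 99th percentile, where its mean was -0.14 relative to the level. Ppp3cc (6.46 ± 0.36) lay 0.11 above the level without passing (limma adjusted p = 0.571), and the testis form Ppp3r2 (3.93 ± 0.05) was far under it. All 3 regulators of calcineurin were called, Rcan2 at 7.99 ± 0.08, Rcan1, itself a target of NFAT, at 7.59 ± 0.29 and Rcan3 at 7.03 ± 0.26. Rcan3 lost its call when replicate 2 (limma adjusted p = 0.0967) or replicate 4 (0.0581) was left out, and with the background at the 99th percentile Rcan2 alone of the 3 was called. Of 4 NFAT genes Nfatc3 (7.89 ± 0.09) and Nfatc4 (7.54 ± 0.06) were called and Nfatc2 (5.85 ± 0.04) and Nfatc1 (6.20 ± 0.33) were not. Other calcineurin partners passed in 5 of 10 cases, with Ppia, the cyclophilin that carries cyclosporin to calcineurin, at 11.83 ± 0.11, Fkbp1a at 9.10 ± 0.33, while Myoz2 (4.37 ± 0.29), a muscle inhibitor, was not called.

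Other EF-hand proteins were called in 18 of 21 cases, among them Sparc (12.31 ± 0.16), Cetn3 (11.60 ± 0.17), the calpain subunit gene Capns1 (11.04 ± 0.23) and Calu (10.85 ± 0.16), and Ncs1 (5.10 ± 0.15) was not called. Over all the pathway genes outside the members together 55 of 87 measured (63.2%) were called, with a median distance of 1.20 from the level. These genes were listed for their place in the pathway with earlier results of these data known, so the share describes the list. S100pbp, the remaining member, had a mean of 7.37 ± 0.08 and was not called with the background at the 99th percentile (limma adjusted p = 0.801).

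The arrays agreed closely for some members and differed for others. The median SD of the 27 called members was 0.24, against 0.27 over all called genes. A difference of more than 1 log2 unit between the highest and the lowest array was found in 3 of them, S100a13 (1.22), S100a10 (1.13) and S100g (1.08), against 13.7% of all called genes and 8.66% of all genes, called or not. Of the members not called, Anxa3 (1.62) and Anxa1 (1.24) also passed this size. Leaving out an array can only keep or narrow this difference, so a lower count does not show that it rested on single arrays. Without replicate 2 only S100a13 remained, against 7.11% of called genes, and without replicate 5 only S100a10, against 3.78%. Without replicate 4 both S100a13 and S100g remained, against 7.8%. With each array's background level subtracted 7 called members passed, against 23.6% of called genes, namely S100a4, S100a6, S100a10, S100a13, Anxa2, Calm3 and Camk2n1, and S100g did not.

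**Figure D3:**
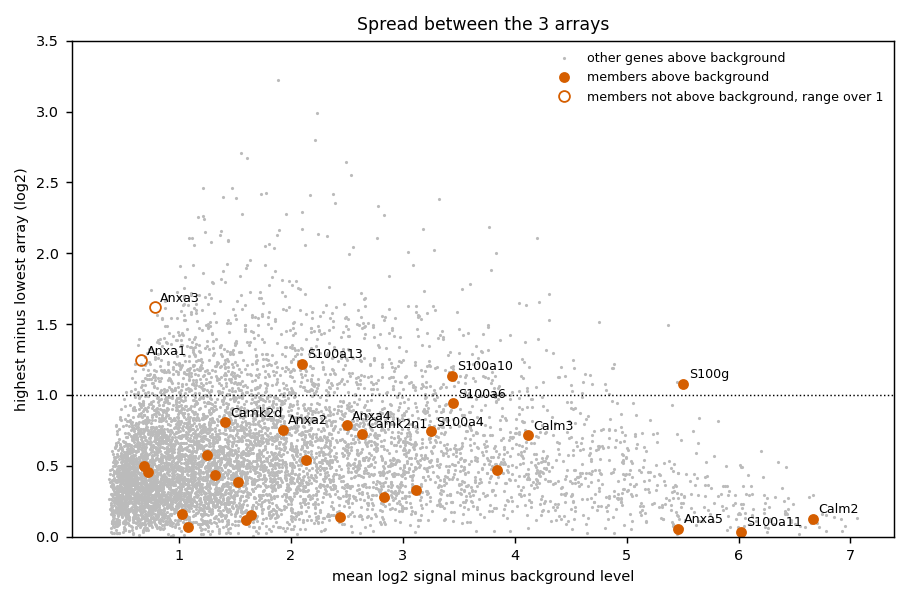
Highest minus lowest array (vertical axis, log2) against the mean log2 signal minus the background level (horizontal axis) for all 7437 genes above background (grey), the 27 members among them (filled) and the 2 members that were not called but exceeded 1 log2 unit (open). Anxa5, S100a11 and Calm2 lie near the lower edge, and S100g lies above the dotted line at 1.

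Which array was highest depended on the scale for many genes. On all 4 scales compared, namely the deposited values, values minus the level, values minus the array median and quantile-normalised values, replicate 2 was highest in 8 called members (29.6%, against 36.7% of all called genes), replicate 4 in 7 (25.9%, against 23.2%) and replicate 5 in 1 (3.7%, against 7.65%), and for 11 the scales disagreed (40.7%, against 32.4%). The 8 were S100a4, S100a6, S100a13, Anxa2, Calm3, Camk2n1, Ppp3cb and Rcan3. The 7 were S100a1, S100a10, Anxa4, Camk1, Camk2d, Ppp3r1 and Rcan1, and the 1 was S100g.

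Marker lists differed between the arrays as well. Endothelial markers, called in 9 of 12 cases, had a median of 7.66 in replicate 2 and of 6.94 and 6.77 in replicates 4 and 5. Of these 12 markers 10 were highest in replicate 2, among them Pecam1, the platelet and endothelial adhesion molecule, at 9.03, 6.87 and 6.79, while Tek was highest in replicate 4 and Ehd3 in replicate 5. On the deposited scale the medians of the renin cell and mural list (9.87, 9.35 and 9.60) and of the smooth muscle list (10.90, 10.40 and 10.63) were also highest in replicate 2. That of the podocyte list (6.52, 6.43 and 6.37) was as well. After quantile normalization the renin cell and mural median was highest in replicate 5, at 9.77, 9.26 and 9.78. The members Anxa2, S100a4 and S100a6 were highest in replicate 2 on all 4 scales, as were S100a13, Calm3, Camk2n1, Ppp3cb and Rcan3. For called members that share (29.6%) was no higher than for all called genes (36.7%). Anxa3 and Anxa1, which were not called, were highest there too, as were members under the level such as Pvalb and Camk2n2. Without replicate 2 the count of endothelial calls was 4 and Anxa2, S100a4 and S100a6 were still called. A call concerns only the distance of the mean from the level, so it does not bear on why replicate 2 was highest. Principal cell markers had medians of 7.41, 8.46 and 7.99, and parietal epithelial markers 8.65, 9.62 and 8.82. Each was highest in replicate 4, as were S100a10, Anxa4 and the other called members listed above for that array. On the deposited scale the medians of the thick ascending limb (10.36, 10.64 and 9.61), proximal tubule (11.32, 11.43 and 10.63) and intercalated cell lists (6.92, 7.90 and 7.83) were highest in replicate 4 too. After quantile normalization the intercalated cell median was highest in replicate 5, at 6.92, 7.85 and 7.95. Krt7, a keratin gene of the parietal list, gave 8.45, 9.88 and 9.09. Without replicate 4 S100a10 and Anxa4 were still called, which likewise does not bear on why replicate 4 was highest. The part of any of these cells in the differences between arrays was not tested.

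**Figure D4:**
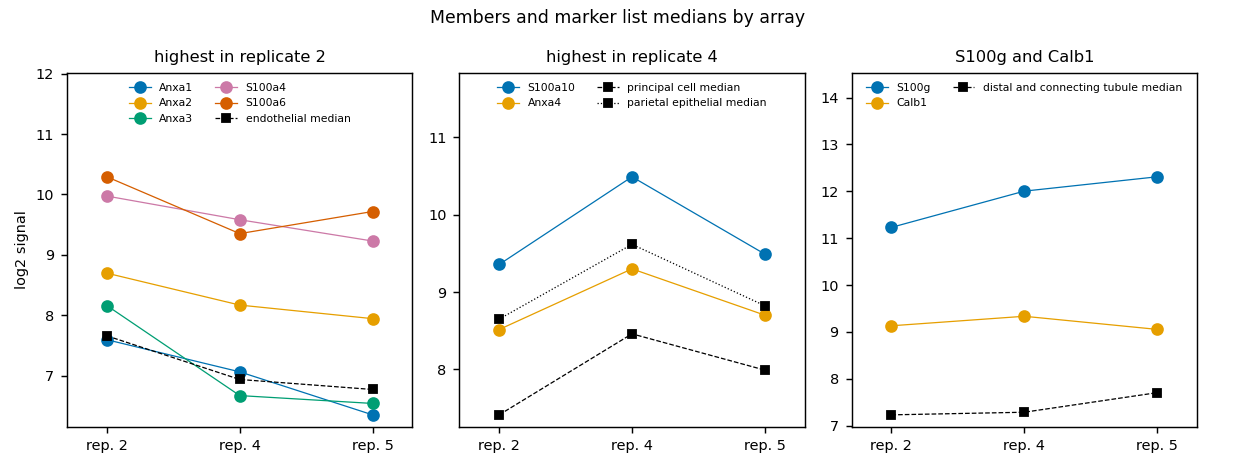
Deposited log2 signal (vertical axis) in replicates 2, 4 and 5 (horizontal axis) for some of the members highest in replicate 2 (left), some of those highest in replicate 4 (middle) and S100g with Calb1 (right). Black squares are the medians of some marker lists, and lines join the values of 1 gene or list. The lists drawn are endothelial (left), principal cell and parietal epithelial (middle) and distal and connecting tubule (right). Medians of other lists, not drawn, were also highest in replicate 2 or in replicate 4. Anxa1 and Anxa3 (left) were not called. Anxa3 falls from 8.16 in replicate 2 to 6.67 and 6.54, and S100a10 stands at 10.49 in replicate 4 against 9.36 and 9.49.

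The brightest probe set stood for a gene, and 3 members had more than 1. The probe sets of Calm2 had means of 13.01 and 11.97 and those of S100a11 means of 12.36 and 12.16, and all of these were above background when each probe set was tested alone. Those of Anxa6 had means of 9.46 and 6.82, and the second was not above background by itself (limma adjusted p = 0.0575), with signals of 6.38, 6.62 and 7.47 and thus with another order of arrays than the first. Gaps of over 1 log2 unit, as in Calm2 and Anxa6, were found in 52.9% of all called genes with more than 1 probe set. Calmodulin genes and some S100 genes have close copies elsewhere in the genome, and how the probes divide such transcripts was not tested.

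The number called rested on the background level. At the 99th percentile 20 members were called (35.1%, against 16.6% of all genes) and at the 90th 33 (57.9%, against 50%). With vomeronasal receptors in place of olfactory ones 37 were called (64.9%), a share no higher than that of all genes (65.9%). With keratin-associated protein genes 6 were called (10.5%, against 3.56%), namely S100a1, S100a11, S100g, Anxa5, Calm2 and Calm3. These 6 were called under every alternative tried, and 20 of the 27 under every alternative except the keratin-associated level. Of the 30 members not called, 20 were called under none. Anxa1, Anxa3, Anxa11, Camkk2, Ppp3cc and S100a7a were added at the 90th percentile and with vomeronasal receptors, and Anxa13, Calm4, Camk2a and Camk2b with the latter only. Anxa1 and Anxa3 also passed when only genes above the level in at least 1 array were tested (limma adjusted p = 0.0154 and 0.0172). That filter used the same values as the test and removed genes under the level, so these passes add no support.

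**Figure D5:**
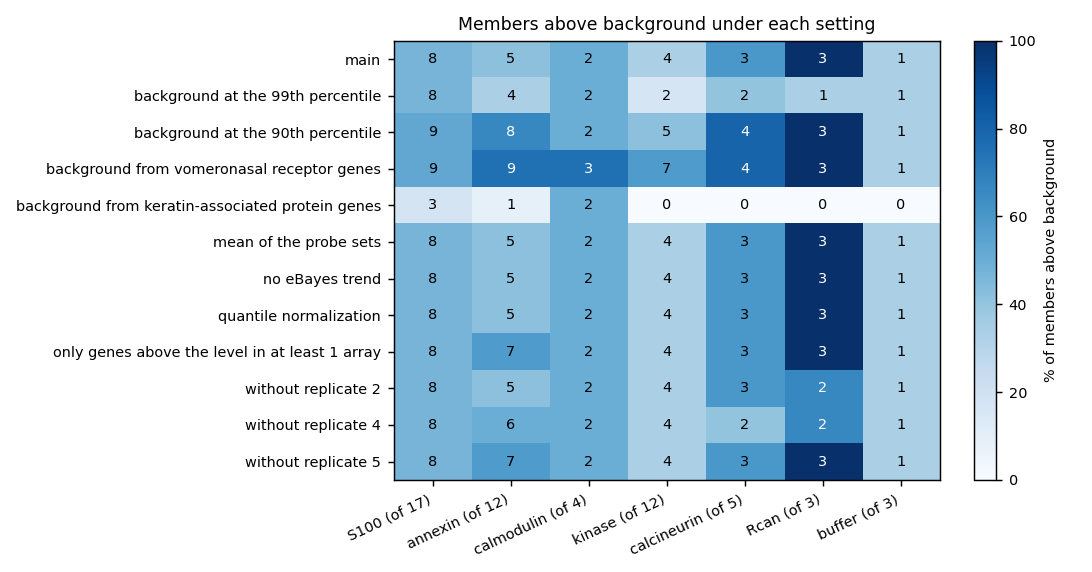
Number of members above background in each family (columns) for the setting reported and for each alternative (rows), shaded by the percentage of the family's measured members. The S100 count is 8 or 9 under every setting except the level from keratin-associated protein genes, where it is 3.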

How the data were processed

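The deposited file holds, for each of 3 arrays, log2 signals per probe set made by the authors. The submitters' processing notes name Affymetrix Expression Console. Its version, summary method and normalization were not given in the sources used here. That the scale is log2 follows from the range of 2.21 to 13.96, and no source states the base. The number of arrays limits the precision.

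Of 35557 probe sets, 21789 had 1 gene symbol in the platform annotation, 1621 several and 12147 were not listed there. Entrez identifiers matched all 57 members to RefSeq (GRCm38.p6) and changed 0 symbols. A gene was its brightest probe set. The log2 signal minus the 95th percentile of 1027 olfactory receptor genes was fitted for 19938 genes with limma 3.58.1 (R 4.3.3, intercept, eBayes with trend), with a one-sided test and Benjamini-Hochberg adjustment at 0.05. At an unadjusted p under 0.05, 30 members (52.6%) and 40.6% of all genes passed.

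The members and lists were chosen with earlier results of these data known. By the rule for named genes, called members 2 or more log2 units above the level are given per array. Of each pathway list up to 4 called genes furthest above the level and the lowest could be named; a few further genes (Ahnak, Mylk, Gap43, Nfatc1 and the markers Trpm6, Pecam1, Tek, Ehd3, Krt7, Rgs5 and Gja5) were named after their values were seen. On simulated arrays of 19938 genes with 200 planted, the test found 86.0% of those 0.5 log2 units above the level, 94.0% of those 1 above, 98.0% of those 2 above and 100% of those 3 above. It called 0.193% of 9840 simulated at or under the level. Those genes kept their own means, so this share is no error rate for genes lying at the level. Planted genes kept the SD they had under the level, and noise was drawn separately for each gene and array, so the shares found may not hold for real genes. Alternatives changed the level, the probe set rule, the trend, the normalization, the filter and the arrays used. Python 3.11.15 and pandas 2.3.3 were used.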

Additional observations from a re-analysis of the deposited data

How the results depend on the processing

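With the level from keratin-associated protein genes 6 members and 9 pathway genes were called in place of 27 and 55; other levels gave 20 to 37 members, and 37 to 75 pathway genes. All genes called numbered 709 with the keratin-associated level and 3303 to 13140 with the others, and with vomeronasal receptors the members' share (64.9%) was no higher than that of all genes (65.9%). Leaving out 1 replicate gave 26 to 29 members and 50 to 57 pathway genes. It gave 1 to 2 called members with arrays over 1 log2 unit apart in place of 3, a count that leaving out an array cannot raise. That count was 7 with each array minus its background level, a scale added after the data were seen. The other alternatives kept these counts within 1.5 times.

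Some members called neither as reported nor under the alternative changed side of the level. Examples are Anxa1 (-0.20) and Anxa11 (-0.82) at the 99th percentile, and such members are not listed in full. For members called as reported or under the alternative, means moved to the other side of the level as follows. With keratin-associated protein genes they were -0.40 for Anxa2, -1.01 for Anxa7, -0.80 for Camk1, -0.92 for Camk2d, -1.25 for Camk2g, -0.19 for Ppp3cb, -1.60 for Ppp3r1, -1.08 for Rcan1, -0.68 for Rcan2, -1.64 for Rcan3, -0.23 for S100a13, -0.73 for S100a16 and -1.30 for S100pbp. At the 99th percentile they were -0.14 for Ppp3r1 and -0.18 for Rcan3. With vomeronasal receptor genes they were 0.40 for Anxa13, 0.50 for Calm4, 0.36 for Camk2a and 0.63 for Camk2b. These shifts follow from the higher or lower level itself. No paired analysis was possible because the series holds 1 group.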
